A study of Mus musculus with 14 samples.

Results

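Markers of the segments of the brain vascular tree, 8 genes in all, were followed through single-nucleus RNAseq (snRNAseq) of vascular fragments: *Bmx*, *Gkn3*, *Mgp* and *Cytl1* for arteries, *Car4* and *Rgcc* for capillaries, and *Nr2f2* and *Vwf* for veins. The genes were taken as a named list of markers of the 3 segments, and all 8 were found among the 26528 genes of the brain matrix. Their unique molecular identifiers (UMIs, each standing for 1 captured transcript) were added up within every cell type label, separately for 2 libraries. The comparison asks how the arterial, capillary and venous signatures of brain endothelial cells (ECs) stand when ECs have lost a TGF-beta receptor.

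The CKO library came from *Cdh5CreER;Tgfbr1 CKO/-* mice, which carry a conditional *Tgfbr1* allele over a null allele and a tamoxifen-inducible Cre under the EC-specific *Cdh5* promoter. These mice received 4-hydroxytamoxifen (4HT) from postnatal day (P) 3 to P5. The control library came from mice that the labels call wild type and the study phenotypically wild type, a term it uses in its retina work for mice that are typically *Cdh5CreER;Tgfbr1 CKO/+*. The exact genotype of the control mice and whether they received 4HT are not stated for this library. Both were made at P14, each from fragments of 2 pooled brains spun out of the homogenate with Ficoll. There was 1 library per genotype. Nuclei of a library are not replicates, so no test of genotype was possible and the 95% intervals below cover counting error only.

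The cerebral vasculature is zoned, and ECs of arteries, capillaries and veins express graded sets of transcripts that shade into one another along the vessel. Arterial identity is promoted by Notch signaling, and venous identity by the orphan nuclear receptor encoded by *Nr2f2*, which represses Notch. TGFBR1 is the type I subunit of the TGF-beta receptor, a kinase that passes the signal to SMAD proteins, which regulate genes in both ECs and mural cells.

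The control library held 16649 nuclei with 49798325 UMIs and the CKO library 14675 nuclei with 31033373 UMIs. The authors' annotation gave 21 labels. It placed 2475 control nuclei (14.9%, exact binomial 95% interval 14.3 to 15.4) and 2944 CKO nuclei (20.1%, 19.4 to 20.7) under ECs, with 5801552 and 6851854 UMIs and medians of 1347 and 1491 UMIs per nucleus. The libraries shared 2 barcode sequences, 0 of them among EC nuclei. All 9 endothelial markers examined were present in the EC nuclei of both libraries, led by *Flt1*, and summed to 12786 CPM (counts divided by all UMIs of the label, on a common scale) in the control and 9839 CPM in the CKO. *Tgfbr1* itself stood at 69.1 CPM (Poisson 95% interval 62.5 to 76.2) in control and 62.9 CPM (57.1 to 69.1) in CKO EC nuclei. These 3′ counts do not show whether the deleted part of the gene was present, so they do not check the genotype.

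The libraries also differed in sex-linked transcripts. *Xist*, transcribed from the inactive X chromosome, gave 2247 CPM in control EC nuclei and 0.292 CPM in CKO EC nuclei, while the Y-linked *Ddx3y* gave 95.8 and 200.4 CPM. Genotype and the sex of the pooled animals cannot be told apart here, and *Bmx* lies on the X chromosome. Nuclei with a UMI of 1 or more of 4 cycling markers (*Mki67*, *Top2a*, *Cenpf*, *Kif11*) made up 11.4% of control and 30.3% of CKO EC nuclei. The cycling markers were led by *Top2a* and summed to 204 and 440.5 CPM. Ratios without these nuclei are given for some genes, but leaving them out also removes UMIs unevenly, keeping 4643802 of the control and 3829062 of the CKO UMIs, so the part of cycling was not measured.

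In EC nuclei, 6 of the 7 genes with at least 20 UMIs over both libraries were lower in the CKO than in the control, and *Nr2f2* alone was slightly higher. Past a 1.5-fold difference, 3 genes (*Mgp*, *Rgcc* and *Vwf*) were lower and 0 were higher. Among the 13154 genes with at least 20 UMIs in EC nuclei, 12% were at least 1.5-fold lower and 22.6% at least 1.5-fold higher in the CKO. The median log2 ratio of the 7 genes was -0.52, beside 0.13 over all 13154. So the 7 genes lay toward the lower side of the whole, but they are few, and the count depends on the denominator. Per UMI of the 9 endothelial markers, 0 of the 7 were 1.5-fold lower, while TMM scaling, median-ratio scaling and the mean over nuclei each gave 4, with *Bmx* added. Of all genes, 15.0%, 14.6% and 13.8% were 1.5-fold lower in these last settings, and 18.7%, 19.1% and 40.6% were 1.5-fold higher. The share of all genes was not counted per endothelial marker UMI.

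Among the arterial markers, *Bmx*, a Tec-family tyrosine kinase of arterial endothelium, gave 441 UMIs (76.0 CPM, 69.1 to 83.5) in control EC nuclei and 364 UMIs (53.1 CPM, 47.8 to 58.9) in CKO EC nuclei. The CKO to control ratio was 0.699 (exact conditional binomial 95% interval 0.607 to 0.805). It was 0.882 in EC nuclei without a cycling UMI, and 0.606 in EC nuclei that held fewer pericyte and smooth muscle marker UMIs than endothelial ones. The difference in *Bmx* thus ranged from slight to over 1.5-fold with the nuclei counted, in the same direction.

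*Gkn3*, which encodes a secreted protein of the gastrokine family, was scarce in EC nuclei. It gave 109 UMIs (18.8 CPM, 15.4 to 22.7) in the control and 96 UMIs (14.01 CPM, 11.3 to 17.1) in the CKO, a ratio of 0.746 (0.561 to 0.990). The direction did not hold under every choice of nuclei. In EC nuclei with fewer mural than endothelial marker UMIs the ratio was 1.06.

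*Mgp*, encoding matrix Gla protein, a secreted inhibitor of calcification that binds BMPs, gave 983 UMIs (169 CPM, 159 to 180) in control EC nuclei and 760 UMIs (111 CPM, 103 to 119) in CKO EC nuclei. The ratio of 0.655 (0.595 to 0.720) lies just past 1.5-fold. A single control nucleus held 47 *Mgp* UMIs, against a maximum of 14 in the CKO, and without the top nucleus of each library the ratio was 0.673. It was 0.708 with nuclei thinned to 500 UMIs and 0.859 in EC nuclei with fewer mural than endothelial marker UMIs, so the 1.5-fold difference of *Mgp* did not hold in these settings. The control nuclei that carried the transcript held more of it, with 2.69 UMIs per positive nucleus in the control and 1.58 in the CKO.

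*Cytl1*, encoding a small cytokine-like secreted protein, lay at the edge of detection in EC nuclei. It gave 6 UMIs (1.03 CPM, 0.380 to 2.25) in 4 control nuclei and 0 UMIs in the CKO. A count of 0 allows 3 UMIs (0.438 CPM). No size of a difference is read from so few UMIs, and *Cytl1* is left out of the ratios across settings.

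Most arterial UMIs in the control library were not under the EC label. Nuclei labeled vascular smooth muscle cells (vSMCs) numbered 449 in the control and 103 in the CKO, and had the highest level of *Bmx* and *Gkn3* of any label with at least 100000 UMIs, in both libraries, and of *Cytl1* in the control. *Bmx* gave 642 UMIs (415 CPM, 384 to 448) in control and 92 UMIs (356 CPM, 287 to 437) in CKO vSMC-labeled nuclei. *Gkn3* gave 567 UMIs (367 CPM, 337 to 398) and 119 UMIs (461 CPM, 382 to 551). *Cytl1* gave 30 UMIs (19.4 CPM, 13.1 to 27.7) and 3 UMIs (11.6 CPM, 2.39 to 33.9). In this label *Bmx* and *Cytl1* did not differ between the libraries beyond counting error, and *Gkn3* was 1.26-fold higher in the CKO (1.02 to 1.53), where fibroblast markers in the label were higher too (1594 CPM in the control and 3108 CPM in the CKO). Of all *Gkn3* UMIs in the control library 82.8% fell in vSMC-labeled and 15.9% in EC nuclei, and in the CKO library 54.1% and 43.6%.

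*Mgp* was the arterial gene that was lower in the CKO in the vSMC label as well. It gave 3149 UMIs (2036 CPM, 1965 to 2108) in control and 232 UMIs (898 CPM, 786 to 1021) in CKO vSMC-labeled nuclei, a ratio of 0.441 (0.384 to 0.504). One control nucleus there held 212 *Mgp* UMIs. Under the label glia the order was the other way, with 1515 UMIs (874 CPM, 831 to 919.5) in the control and 525 UMIs (1052 CPM, 964 to 1146) in the CKO. The lower *Mgp* level of the CKO was therefore seen in ECs and vSMCs but not in that label, whose nuclei carried fibroblast markers at 4680 and 4273 CPM, led by *Col1a2*, beside astrocyte markers at 2036 and 1827 CPM.

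**Figure D1:**
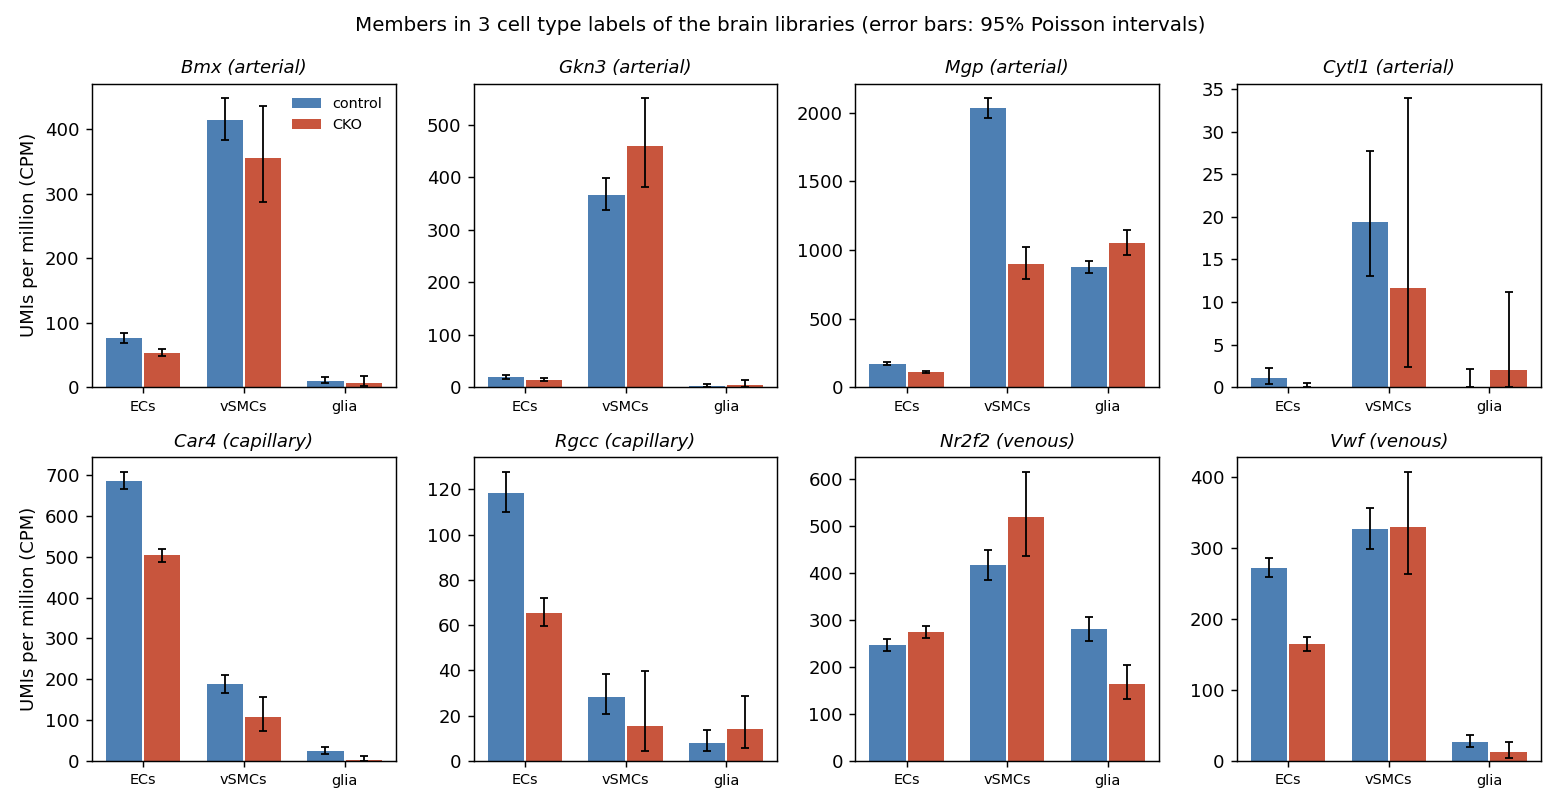
Levels of the 8 genes in nuclei labeled ECs, vSMCs and glia, in CPM of the label (vertical axes from 0, separate for each gene), with 95% Poisson intervals as error bars for the control (blue) and CKO (red) library. *Bmx*, *Gkn3* and *Cytl1* stand highest under vSMCs and *Car4* and *Rgcc* highest under ECs among these 3 labels, and the CKO bar is lower than the control bar under ECs for all but *Nr2f2*.

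The vSMC label does not hold smooth muscle transcripts alone. Its control nuclei gave 5496 CPM of 6 smooth muscle markers, led by *Acta2*, and 5812 CPM of the 9 endothelial markers, led by *Ptprb*. Its CKO nuclei gave 4746 and 6065 CPM, and all 6 and all 9 genes were present in both. Pericyte markers, led by *Rgs5*, stood at 6647 and 6352 CPM, above both of these classes. UMIs of 2 or more endothelial markers were found in 86.4% of the control and 85.4% of the CKO vSMC-labeled nuclei. Those with a UMI of *Bmx* or *Gkn3*, 216 of 449 and 52 of 103, had 5691 and 5853 CPM of endothelial markers, close to the 6141 and 6391 CPM of the rest. Their pericyte markers stood at 6915 and 8305 CPM, against 5915 and 3367 CPM in the rest. Fibroblast markers were lower in them, at 1268 and 2452 CPM against 2482 and 4110 CPM. Smooth muscle markers were lower in the control (5172 against 6380 CPM) and higher in the CKO (4867 against 4561 CPM). Whether such nuclei are arterial ECs, smooth muscle cells or mixtures of nuclei was not tested. Since the label took 449 control but only 103 CKO nuclei, counting it with the ECs changed the arterial ratios: over both labels together, chosen after seeing the data, the ratio was 0.435 for *Bmx*, 0.329 for *Gkn3* and 0.248 for *Mgp*. Over all nuclei with UMIs of at least 2 endothelial markers it was 0.497 for *Bmx*, 0.380 for *Gkn3* and 0.295 for *Mgp*. Over these nuclei, fewer arterial nuclei recovered and less transcript per nucleus cannot be told apart.

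Of the capillary markers, *Car4*, a membrane-anchored carbonic anhydrase of the capillary surface, gave 3982 UMIs (686 CPM, 665 to 708) in control and 3447 UMIs (503 CPM, 486 to 520.2) in CKO EC nuclei. The ratio was 0.733 (0.700 to 0.767). *Car4* was the gene most restricted to the EC label, where 90.2% of its control and 98.8% of its CKO UMIs were found. Because ECs made up more of the CKO library, the *Car4* ratio over all nuclei, a count added after the data were seen, was 1.27, opposite in direction to the ratio within ECs. Per UMI of the 9 endothelial markers it was 0.953, so most of the *Car4* difference had the size of the difference in general endothelial markers.

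*Rgcc*, which encodes a regulator of the cell cycle, differed most of the 7 genes in EC nuclei. It gave 688 UMIs (119 CPM, 110 to 128) in the control and 449 UMIs (65.5 CPM, 59.6 to 71.9) in the CKO, a ratio of 0.553 (0.490 to 0.623). Leaving out nuclei with a cycling UMI gave 0.470. Counting all nuclei with UMIs of at least 2 endothelial markers gave 0.713, short of 1.5-fold, and so did counting *Rgcc* per endothelial marker UMI, with 0.718. *Rgcc* was not an EC gene alone in these libraries. Oligodendrocyte precursors (OPCs) held 165 UMIs (317 CPM, 270.4 to 369) in the control and 51 UMIs (244 CPM, 182 to 321) in the CKO, the highest level of any label with at least 100000 UMIs in both. Astrocytes held 92 UMIs (67.5 CPM, 54.4 to 82.8) and 96 UMIs (189.9 CPM, 154 to 232), so that astrocytes and ECs changed places between the libraries, and over all nuclei the ratio was 0.895. The lower level in the CKO was thus not shared by astrocytes.

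The venous markers parted. *Nr2f2*, the COUP-TFII nuclear receptor, gave 1427 UMIs (246 CPM, 233 to 259) in control and 1873 UMIs (273 CPM, 261 to 286) in CKO EC nuclei, a ratio of 1.11 (1.04 to 1.19). *Vwf*, encoding von Willebrand factor, the glycoprotein that ECs store for platelet adhesion, gave 1579 UMIs (272 CPM, 259 to 286) and 1129 UMIs (165 CPM, 155 to 175), a ratio of 0.605 (0.560 to 0.654). *Nr2f2* stayed at or above the control under each of 12 other settings, from 1.00 to 1.44, and *Vwf* below it, from 0.440 to 0.900. The opposite signs of these 2 venous genes were therefore present in every setting run, although the size of the *Nr2f2* difference was small and came to 1.00 when vSMC-labeled nuclei were added. In EC nuclei the log2 ratio of *Nr2f2*, 0.15, was also close to the median of 0.13 over all 13154 genes. *Vwf* fell short of 1.5-fold in EC nuclei with at least 1000 UMIs (0.679), over nuclei with at least 2 endothelial markers (0.680), per endothelial marker UMI (0.787) and over all nuclei (0.900).

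Outside ECs, *Nr2f2* was widespread among vessel-associated nuclei. Control pericytes gave 135 UMIs (1108 CPM, 929 to 1311), above vSMCs with 643 UMIs (416 CPM, 384 to 449), the label glia with 484 UMIs (279 CPM, 255 to 305) and ECs. The intervals of glia and ECs overlapped. In the CKO library, 22 pericyte nuclei gave 11 *Nr2f2* UMIs, too shallow a label to rank. There vSMCs led with 134 UMIs (519 CPM, 435 to 614), followed by ECs and then glia with 82 UMIs (164 CPM, 131 to 204). *Vwf* was highest under vSMCs as well, with 504 UMIs (326 CPM, 298 to 356) in the control and 85 UMIs (329 CPM, 263 to 407) in the CKO, a ratio of 1.01 (0.793 to 1.27). The lower *Vwf* level in the CKO was thus found in EC-labeled nuclei and not in vSMC-labeled ones.

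The share of EC nuclei with a UMI told the same order for some genes and not for others. *Rgcc* was seen in 20.2% of control (18.6 to 21.8) and 12.5% of CKO EC nuclei (11.3 to 13.7), and *Vwf* in 37.4% (35.5 to 39.4) and 27.2% (25.6 to 28.8). *Car4* was seen in 59.4% (57.4 to 61.3) and 54.4% (52.6 to 56.2), and *Nr2f2* in 30.4% (28.6 to 32.3) and 36.9% (35.1 to 38.7). These 4 differ by more than counting error, in the direction of their CPM. The unthinned shares of *Bmx* (7.96% and 7.03%) and *Gkn3* (2.42% and 2.31%) did not differ beyond counting error. The share of *Mgp* was 14.7% in the control and 16.4% in the CKO, against the order of its CPM, and no order is read from it. *Cytl1* was seen in 0.162% of control nuclei and in 0 of 2944 CKO nuclei.

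With each EC nucleus thinned to 500 UMIs, which left out 416 control and 343 CKO nuclei, the shares were 7.09% and 3.27% for *Rgcc*, 16.0% and 9.15% for *Vwf*, 29.6% and 23.8% for *Car4*, and 11.6% and 13.7% for *Nr2f2*. The order of these 4 was that of the unthinned shares. Thinned to 1000 UMIs, the *Nr2f2* difference of 2.80 points (-0.0296 to 5.59) was no longer beyond counting error, while *Bmx* was, at 5.78% and 4.13% (difference -1.65 points, -3.19 to -0.184). Shares in neurons were taken beside them, in the 10 neuron labels whose neuron markers stood above every other class. Glut_20 was left out after the data were seen, since its oligodendrocyte markers stood higher (5652 against 4606 CPM in the control). In these neurons, with medians of 2539.5 (control) and 1882 UMIs (CKO), *Nr2f2* was seen in 0.304% and 0.415%, *Rgcc* in 0.278% and 0.281%, *Car4* in 0.443% and 0.0244%, and *Vwf* in 0.127% and 0.0366%. *Mgp* was seen in 0.0506% and 0.0366%. *Bmx* was seen in 0.0886% of control neurons, *Gkn3* in 0.0127% and *Cytl1* in 0.0253%, and each in 0 of 8196 CKO neurons, which allows 0.0366%. The EC shares of 7 genes lay far above these values at lower depth, and only *Cytl1* came near them. For *Nr2f2* the neuron share is not a background, since it was uneven, with 6.62% of control and 11.5% of CKO nuclei under Glut_21 and 0 under Glut_5 and Glut_14. Under Glut_21 *Car4* was seen in 5.15% of control and 0.957% of CKO nuclei, *Rgcc* in 3.68% and 3.35%, and *Mgp* in 2.21% and 1.44%. The neuron shares of these genes were thus uneven too.

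A wider look at each segment used lists of zonation genes, to be read beside the 12% of all 13154 EC genes that were at least 1.5-fold lower and the 22.6% that were at least 1.5-fold higher. Of 20 arterial genes with at least 20 UMIs, 6 were at least 1.5-fold lower, 0 were 1.5-fold higher and 14 lay between, with a median log2 ratio of -0.21. Without *Bmx*, *Gkn3* and *Mgp*, 5 of 17 were lower and the median was -0.04, near no difference. *Fbln5*, encoding a protein of elastic fibers, fell furthest below the control, with 291 control and 79 CKO UMIs (ratio 0.230, 0.177 to 0.296). *Stmn2* (93 and 29 UMIs, ratio 0.264) and *Clu* (53 and 24 UMIs, ratio 0.383) came next. At the other end stood *Unc5b*, a netrin receptor of arterial and sprouting ECs, with 1315 and 2287 UMIs (ratio 1.47, 1.38 to 1.58), *Tm4sf1* (1921 and 3041 UMIs, ratio 1.34) and the arterial ephrin *Efnb2* (643 and 995 UMIs, ratio 1.31). The arterial list therefore held genes on both sides, and *Bmx*, *Gkn3* and *Mgp* lay in its lower part.

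The capillary list leaned one way in EC nuclei. Of its 11 genes with enough UMIs, 7 were at least 1.5-fold lower (12% of all EC genes were) and 0 higher (22.6% of all), with a median log2 ratio of -0.78, and 10 had intervals wholly below 1. *Spock2*, encoding a secreted proteoglycan, gave 14970 control and 5094 CKO UMIs (ratio 0.288, 0.279 to 0.297). The transferrin receptor gene *Tfrc* gave 8352 and 3286 UMIs (ratio 0.333, 0.320 to 0.347), and the lipid transporter gene *Mfsd2a* 4221 and 2333 UMIs (ratio 0.468, 0.445 to 0.492). Apart from *Car4*, the least altered were *Cxcl12*, *Slc7a1* and *Itm2a*, with ratios of 0.718, 0.853 and 1.03. *Car4* and *Rgcc* lay inside the range of the other capillary genes. The 9 general endothelial markers were lower as well, at 12786 CPM in control and 9839 CPM in CKO EC nuclei. The capillary list was not counted per UMI of these markers. Over nuclei with UMIs of at least 2 endothelial markers, 4 of 12 genes were 1.5-fold lower and the median log2 ratio was -0.41. In that setting 25.3% of all 15408 genes were 1.5-fold lower. Counted over all nuclei of each library instead, 3 of 12 genes were 1.5-fold lower, 1 was 1.5-fold higher and the median log2 ratio was -0.05. Over all nuclei, 12.1% of 20903 genes were at least 1.5-fold lower and 7.54% at least 1.5-fold higher.

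The venous list held genes on both sides. Of 13 genes with enough UMIs, 1 was at least 1.5-fold higher (22.6% of all EC genes were), 3 were at least 1.5-fold lower (12% of all) and 9 lay between, with a median log2 ratio of 0.04. *Ackr1*, encoding the atypical chemokine receptor of postcapillary venules, gave 21 control and 153 CKO UMIs (ratio 6.17, 3.90 to 10.3). *Lcn2* gave 22 and 38 UMIs (ratio 1.46, 0.843 to 2.60) and *Aplnr*, the apelin receptor gene, 1722 and 2925 UMIs (ratio 1.44, 1.35 to 1.53). Lowest was *Adgrg6* (349 and 214 UMIs, ratio 0.519), and *Vcam1* was also lower (200 and 175 UMIs, ratio 0.741). *Vwf* thus lay with the lower venous genes, and *Nr2f2* lay slightly above 1. Chosen after its values were seen, the venular selectin gene *Sele* gave 0 control and 15 CKO UMIs.

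**Figure D2:**
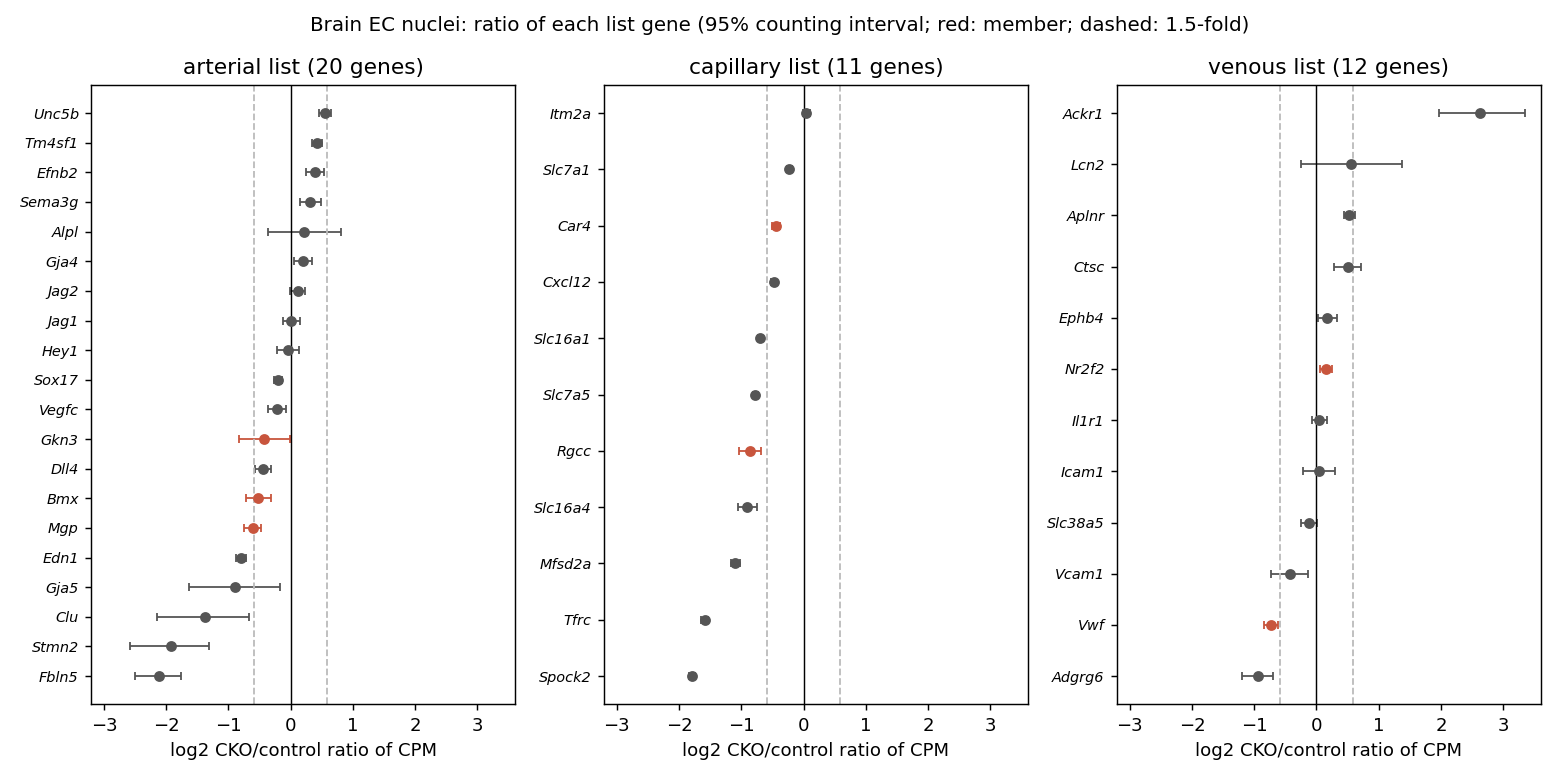
CKO to control ratio of CPM in EC nuclei for list genes with at least 20 UMIs over both libraries (12 of the 13 venous genes are drawn), on a log2 axis, with exact 95% counting intervals; the 7 markers followed in detail are in red and dashed lines mark 1.5-fold. The 11 capillary genes lie from -1.80 to 0.05, while arterial and venous genes fall on both sides of 0.

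Within each library, EC nuclei with a UMI of a marker were set against EC nuclei without one. Nuclei with a marker UMI were deeper, for example 2977 against 1272 median UMIs for *Bmx* in the control, so CPM levels were compared. Control nuclei with *Bmx* held the other 20 arterial genes at 2.78 times (2.70 to 2.87) the level of nuclei without it, and capillary genes at 0.528 times (0.515 to 0.541). In the CKO these ratios were 2.20 (2.13 to 2.28) and 0.799 (0.779 to 0.820). *Gkn3* gave 2.52 and 0.348 in the control and 2.24 and 0.637 in the CKO. The 9 general endothelial markers were also lower in control nuclei with *Bmx* (0.759) or *Gkn3* (0.582) and in CKO nuclei with *Gkn3* (0.867), but not beyond counting error in CKO nuclei with *Bmx* (0.987, 0.964 to 1.01). Both libraries thus held EC nuclei rich in arterial and poor in capillary transcripts, and except for *Bmx* in the CKO part of the lower capillary level was shared by endothelial markers in general. Capillary genes were also lower in nuclei with *Mgp* (0.664 in the control and 0.842 in the CKO), *Nr2f2* (0.695 and 0.829) or *Vwf* (0.770 and 0.881). A lower capillary level was therefore not particular to nuclei with *Bmx* or *Gkn3*.

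*Mgp* marked the arterial set less sharply, with arterial ratios of 1.499 (control) and 1.22 (CKO). For *Car4* the ratios for arterial genes were 0.496 and 0.601, and for the other 11 capillary genes 0.9499 and 0.862, beside 0.755 and 0.822 for the 9 general endothelial markers. *Car4* thus set apart nuclei low in arterial transcripts, whose capillary genes were lower than in the rest but less so than endothelial markers in general. *Rgcc* gave arterial ratios of 0.735 and 0.824, capillary ratios of 0.992 and 0.902 and endothelial marker ratios of 0.900 and 0.876. *Vwf* gave 1.18 (1.13 to 1.24) and 1.10 (1.06 to 1.15) for the other venous genes. *Nr2f2* gave 0.948 (0.906 to 0.992) in the control and 1.14 (1.09 to 1.19) in the CKO. Endothelial markers in general stood at 0.846 and 0.913 for *Vwf* and at 0.698 and 0.841 for *Nr2f2*. Arterial genes stood at 1.08 and 1.005 for *Vwf* and at 0.903 and 0.922 for *Nr2f2*. In both libraries the other venous genes thus stood above the endothelial markers in nuclei with *Vwf* or *Nr2f2*, and so did the arterial genes.

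Markers of other cell types moved with both arterial and venous genes, most with the arterial *Bmx* and *Gkn3*. Control EC nuclei with a *Bmx* UMI held 6 fibroblast markers at 2574 CPM against 342.5 CPM in those without (ratio 7.51, 7.04 to 8.02), and CKO nuclei at 1808 against 257 CPM (ratio 7.03, 6.54 to 7.55). Smooth muscle markers stood at 1020 against 218 CPM (ratio 4.68) in the control and 696 against 227 CPM (ratio 3.07) in the CKO. Pericyte markers differed less, by ratios of 1.39 and 1.498. For *Nr2f2* the fibroblast ratios were 3.58 and 1.78 and the smooth muscle ratios 1.92 and 1.21, and for *Vwf* they were 1.59 and 1.36, and 1.498 and 1.26. Over all EC nuclei the smooth muscle markers summed to 326 and 283 CPM, led by *Myl9* and with *Cnn1* at 0 in both, the fibroblast markers to 642 and 442 CPM, led by *Col1a2*, and the 8 pericyte markers to 8400 and 7157 CPM, led by *Rgs5*. The part of these transcripts in the arterial levels was not tested beyond leaving out nuclei with more mural than endothelial marker UMIs.

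**Figure D3:**
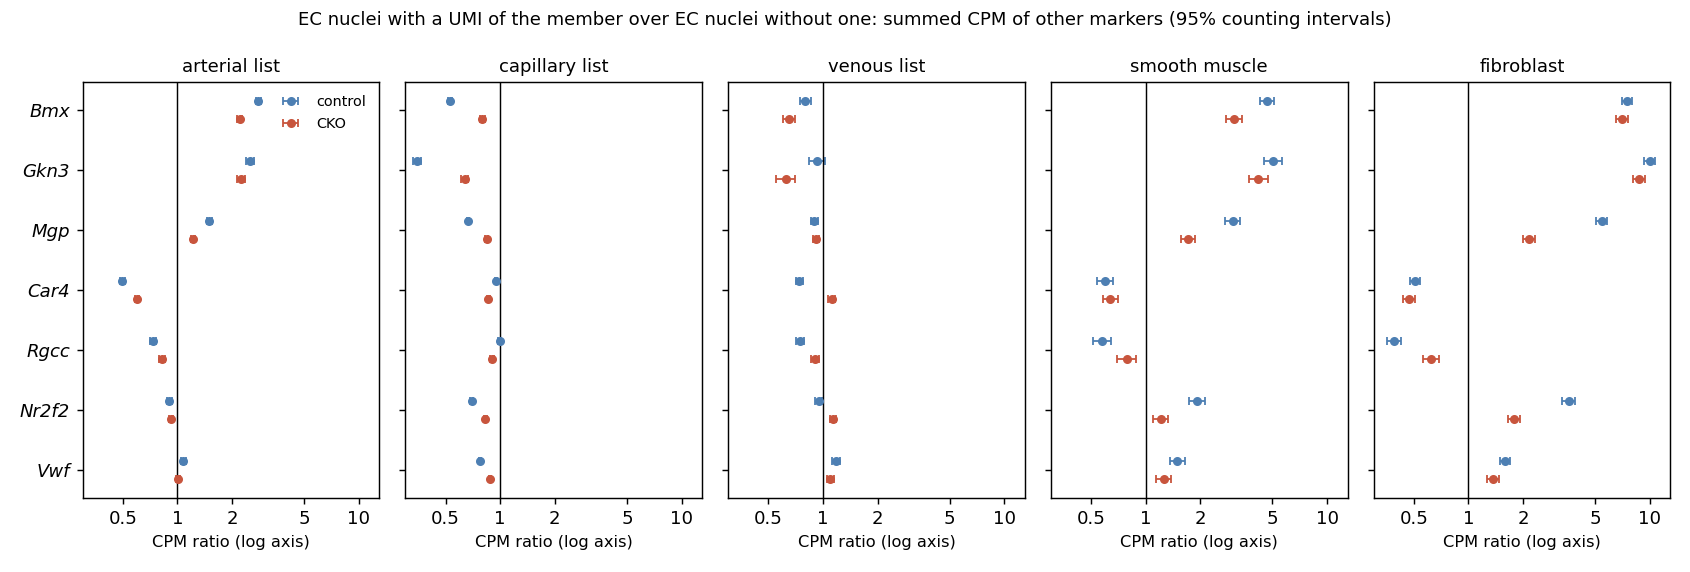
Summed CPM of marker lists in EC nuclei with a UMI of each gene divided by that in EC nuclei without one (log axis, 95% counting intervals), for the control (blue) and CKO (red) library, each list counted without the gene itself. Nuclei with *Bmx* or *Gkn3* lie above 1 for arterial, smooth muscle and fibroblast genes and below 1 for capillary genes in both libraries. The capillary values of the other genes drawn also lie below 1.

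Arterial and venous transcripts were often found in the same nuclei. At least 1 arterial marker of the 4 was seen in 444 control (17.9%) and 609 CKO (20.7%) EC nuclei, with median depths of 3409 and 3045 UMIs. Of these, 330 control nuclei (74.3%, 70.0 to 78.3) and 409 CKO nuclei (67.2%, 63.3 to 70.9) also held a UMI of *Nr2f2* or *Vwf*, compared with 48.5% and 46.0% of the remaining EC nuclei, whose median depths were only 1140 and 1241 UMIs. The part of depth in this difference was not tested. In CPM, the 16 venous list genes were not higher in nuclei with *Bmx*, *Gkn3* or *Mgp* than in nuclei without. The ratios were 0.800 (control) and 0.651 (CKO) for *Bmx* and 0.923 (0.833 to 1.02) and 0.623 for *Gkn3*. For *Mgp* they were 0.895 and 0.916, while *Cytl1*, in 4 control nuclei, gave 2.01. No UMI of any of the 8 genes was seen in 413 control (16.7%) and 636 CKO (21.6%) EC nuclei, which were shallow, with medians of 542 and 655 UMIs.

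The transcripts most like each marker were ranked by how much higher their CPM stood in EC nuclei with a UMI of the marker than in those without, taking the lower of the values in the 2 libraries. Genes were kept in a first ranking by having 20 UMIs in nuclei with the marker in both libraries, which favors scarce genes, and in another, added after the data were seen, by having 50 UMIs over all EC nuclei of both. Named are the genes among the first 3 of both rankings. For *Bmx* this was *Gkn3*, at 24.1 times in the control and 26.4 times in the CKO, so these arterial markers shared nuclei. For *Gkn3* they were the collagen genes *Col13a1* (13.3 and 15.0 times) and *Col1a1* (12.8 and 13.04 times) and the matrix gene *Dcn* (12.8 and 16.4 times), all known from fibroblasts. The elastin gene *Eln* was named for both *Mgp* (24.2 and 8.05 times) and *Vwf* (5.08 and 4.69 times). *Eln* gave 891 UMIs in control *Mgp* nuclei and 83 in the CKO ones. For *Car4* it was *Prtg* (8.03 and 4.58 times), with 2 and 8 UMIs in nuclei without *Car4*. For *Rgcc* and *Nr2f2* no gene was among the first 3 of both rankings.

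The genes lie on 6 chromosomes (GRCm39, GENCODE annotation), with *Gkn3*, *Mgp* and *Vwf* all on chromosome 6. RefSeq promoter windows, from 250 bases before to 50 after a gene's start, were at hand for 6 of the 8: *Bmx*, *Gkn3*, *Cytl1*, *Car4*, *Rgcc* and *Nr2f2*. *Mgp* and *Vwf* have no entry. The windows were searched on both strands for CAGACA, a SMAD box with 1 more base, and GTGGGAA, bound by the Notch partner RBPJ. They were also searched for AGGTCA, a nuclear receptor site, and AGGAAA, a form of the ETS core. Of all 32851 mouse windows of this length, 21.0% hold CAGACA, 6.38% GTGGGAA, 16.3% AGGTCA and 29.1% AGGAAA. Of the 6 windows, 1 held CAGACA (*Nr2f2*), 4 held AGGAAA (*Bmx*, *Gkn3*, *Cytl1* and *Nr2f2*) and 0 held the others. The windows of *Car4* and *Rgcc* held none of the 4 motifs. The SMAD box without the added base and other forms of the ETS core were not searched for, so windows without a match may hold them. A match of letters is a description and not a binding site.

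Windows of 3 genes are printed 5′ to 3′ on the strand of the gene, with motif letters in capitals. *Nr2f2* had a ratio above 1 and the only CAGACA match, and *Rgcc* the lowest ratio and none of the motifs searched. *Bmx* was taken for the arterial group. A link between these letters and the ratios was not tested. All 3 genes are read from the minus strand. The sequences are those of RefSeq on GRCm38.p6, and each was found at 1 place in GRCm39, at chr7:70016445-70016744 for *Nr2f2*, chr14:79539026-79539325 for *Rgcc* and chrX:163041140-163041439 for *Bmx*. The CAGACA match in *Nr2f2* lies on the other strand and is printed as TGTCTG, and the AGGAAA match in *Bmx* as TTTCCT.
Nr2f2: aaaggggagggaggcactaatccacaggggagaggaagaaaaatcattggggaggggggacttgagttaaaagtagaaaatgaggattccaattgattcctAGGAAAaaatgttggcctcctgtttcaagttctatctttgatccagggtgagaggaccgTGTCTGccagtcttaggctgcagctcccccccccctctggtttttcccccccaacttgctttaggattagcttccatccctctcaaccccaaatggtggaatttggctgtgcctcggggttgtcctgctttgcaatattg
Rgcc: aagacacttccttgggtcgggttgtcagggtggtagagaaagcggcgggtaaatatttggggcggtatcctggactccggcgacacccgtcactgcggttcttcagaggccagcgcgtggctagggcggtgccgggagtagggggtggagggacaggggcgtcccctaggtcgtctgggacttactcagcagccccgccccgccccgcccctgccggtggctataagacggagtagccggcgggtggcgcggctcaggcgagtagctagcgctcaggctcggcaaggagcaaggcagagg
Bmx: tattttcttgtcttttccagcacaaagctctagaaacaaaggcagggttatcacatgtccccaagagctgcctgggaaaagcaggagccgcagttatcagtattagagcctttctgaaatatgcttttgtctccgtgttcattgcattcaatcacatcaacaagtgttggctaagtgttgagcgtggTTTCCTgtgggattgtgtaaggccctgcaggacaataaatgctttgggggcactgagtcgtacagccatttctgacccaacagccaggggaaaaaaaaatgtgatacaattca

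Each genotype is 1 library, so the differences have no replicate check, and the libraries differ in sex-linked transcripts, cycling nuclei and the number of vSMC-labeled nuclei.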

How the data were processed

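Nuclei from brain vascular fragments were profiled with a 3′ droplet kit (PIPseq). The deposited files hold a count of UMIs, as whole numbers, for every gene in every nucleus. Per the study's methods, the authors aligned reads and made the counts with PIPseeker 3.3.0 on a GRCm39 index, removed background with CellBender 0.3.2, removed doublets with SOLO (scVI-tools 1.2.2) and by hand, and labeled the nuclei. The submitters' processing notes name Seurat and the build mm10 instead, and no coordinate below depends on the files' build. No nucleus was left out here.

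For a label in a library, the UMIs of a gene were added up and divided by all UMIs of the label (CPM). Intervals are exact Poisson for sums, exact binomial for shares and exact conditional binomial for ratios, at 95%, and Newcombe's for differences of shares, with 3 UMIs as the floor of a count of 0. With 1 library per genotype no test was run. Log2 ratios of lists had 0.5 UMIs added and needed 20 UMIs over both libraries. From each list, of other genes with 50 UMIs, genes were named from the 3 highest and 3 lowest ratios. The genes and lists were chosen with earlier results of these data known. Alternatives used edgeR 4.0.16 (TMM) and DESeq2 1.42.0 (size factors) scaling, other sets of nuclei and thinning to 500 or 1000 UMIs. TMM moved the median log2 ratio of all genes from 0.13 to 0.03. Ratios and thinning were tested on simulated data. Python 3.11.15, numpy 2.4.6, pandas 2.3.3, matplotlib 3.10.9, scipy 1.17.1 and R 4.3.3 were used.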

Additional observations from a re-analysis of the deposited data

Results flagged for a closer look

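In whole retina libraries (1 control, 11 CKO, P14) *Vwf*, *Nr2f2*, *Car4* and *Rgcc* stood, in most or all CKO libraries, on the opposite side of the control from their place in brain EC nuclei. Whole retina and EC nuclei are unlike sets. Over all brain nuclei the *Car4* ratio was 1.27, on the same side as in retina. Those of *Vwf* (0.900), *Rgcc* (0.895) and *Nr2f2* (1.17) lay on the side of brain EC nuclei. *Car4*, with 1 UMI in the control, was above the control in 10 of 11 and above its interval in 5, and *Rgcc* in 9 of 11 and in 5. In the control's batch *Car4* ran from 0.155 to 0.167 CPM, inside the control's interval (up to 0.180). *Rgcc* ran there from 1.84 to 2.67 CPM, with a control interval of 1.37 to 2.35. The 9 endothelial markers were also above the control's interval in 8 of the 11, and below it in the 3 of its batch. *Vwf* gave 11 UMIs in the control (0.355 CPM, Poisson 95% interval 0.177 to 0.635) and a median of 0.669 CPM in the CKO, above the control in 11 of 11 libraries and above its interval in 7. CKO replicate 4, with 104 nuclei, gave 99.5 CPM from 9 UMIs, and without it the range was 0.418 to 1.03 CPM. In the 3 CKO libraries of the control's batch the values ran from 0.418 to 0.777 CPM. *Nr2f2* gave 15.1 CPM (13.8 to 16.6) in the control and from 10.2 to 15.0 CPM in the CKO, with a median of 11.3 CPM, lower in 11 of 11. In the control's batch it ran from 10.8 to 11.7 CPM. The retina annotation has no EC label, *Nr2f2* UMIs were found under neuron and Müller glia labels there, *Vwf* had its highest level over all libraries under immune cells (19 UMIs, 7.13 CPM), and the difference between tissues was not tested.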

How the results depend on the processing

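No paired analysis was possible because there is 1 library per genotype and the labels carry no replicate numbers, so no test was run. Ratios are CKO over control CPM, shares are CKO minus control in percentage points, and the cause of each difference was not tested. With nuclei with UMIs of at least 2 endothelial markers, any label, the ratios were *Bmx* 0.497 (from 0.699), *Gkn3* 0.380 (from 0.746), *Mgp* 0.295 (from 0.655), *Car4* 0.963 (from 0.733), *Rgcc* 0.713 (from 0.553) and *Vwf* 0.680 (from 0.605). On the lists, 1.5-fold higher genes were arterial 1 (from 0) and venous 2 (from 1), beside 13.1% of all genes (from 22.6%). The 1.5-fold lower genes numbered capillary 4 (from 7), beside 25.3% of all genes (from 12%). Medians of log2 ratios were capillary -0.41 (from -0.78) and venous 0.28 (from 0.04). Share differences were *Bmx* -4.29 (from -0.928), *Gkn3* -3.05 (from -0.114), *Mgp* -6.70 (from 1.62), *Car4* -0.750 (from -4.97), *Rgcc* -5.63 (from -7.74) and *Nr2f2* 2.89 (from 6.46). With EC nuclei with fewer mural than endothelial marker UMIs, the ratios were *Bmx* 0.606 (from 0.699), *Gkn3* 1.06 (from 0.746), *Mgp* 0.859 (from 0.655) and *Nr2f2* 1.27 (from 1.11). The 1.5-fold higher genes numbered arterial 2 (from 0), beside 25.9% of all genes. Share differences were *Mgp* 3.64 (from 1.62) and *Nr2f2* 10.7 (from 6.46). The *Gkn3* ratio turned above 1 here. With EC nuclei without a UMI of the cycling markers, the ratios were *Bmx* 0.882 (from 0.699), *Rgcc* 0.470 (from 0.553) and *Nr2f2* 1.21 (from 1.11). Higher by 1.5-fold were arterial 1 (from 0) and venous 3 (from 1), beside 21.7% of all genes. Median log2 values were arterial -0.046 (from -0.21). With nuclei labeled ECs or vSMCs, the ratios were *Bmx* 0.435 (from 0.699), *Gkn3* 0.329 (from 0.746), *Mgp* 0.248 (from 0.655), *Car4* 0.840 (from 0.733), *Rgcc* 0.640 (from 0.553) and *Nr2f2* 1.00 (from 1.11). The markers at least 1.5-fold lower were 5 of 7 (from 3), beside 19.6% of all genes (from 12%). The lists had as 1.5-fold higher genes arterial 1 (from 0) and venous 2 (from 1), beside 17.5% of all genes (from 22.6%). The median log2 ratios were arterial -0.40 (from -0.21) and capillary -0.60 (from -0.78). With the mean over nuclei, all nuclei weighing the same, the ratios were *Bmx* 0.558 (from 0.699), *Rgcc* 0.385 (from 0.553), *Nr2f2* 1.25 (from 1.11) and *Vwf* 0.440 (from 0.605). Lower by 1.5-fold were venous 5 (from 3), beside 13.8% of all genes. Medians of log2 ratios were arterial -0.39 (from -0.21) and capillary -0.86 (from -0.78). Counted per UMI of the 9 endothelial markers, the ratios were *Bmx* 0.908 (from 0.699), *Mgp* 0.851 (from 0.655), *Car4* 0.953 (from 0.733), *Rgcc* 0.718 (from 0.553), *Nr2f2* 1.44 (from 1.11) and *Vwf* 0.787 (from 0.605). The markers at least 1.5-fold lower were 0 of 7 (from 3). With all nuclei of the library, the ratios were *Gkn3* 0.515 (from 0.746), *Mgp* 0.429 (from 0.655), *Car4* 1.27 (from 0.733), *Rgcc* 0.895 (from 0.553) and *Vwf* 0.900 (from 0.605). Genes at least 1.5-fold higher were arterial 1 (from 0), capillary 1 (from 0) and venous 4 (from 1), beside 7.54% of all genes. Genes at least 1.5-fold lower were capillary 3 (from 7), beside 12.1% of all genes. Median log2 values were capillary -0.0504 (from -0.78) and venous 0.37 (from 0.04). The *Car4* ratio turned above 1 here. With TMM scaling, the ratios were *Car4* 0.682 (from 0.733) and *Nr2f2* 1.03 (from 1.11). The median log2 ratios were capillary -0.88 (from -0.78). With median-ratio scaling, the ratios were *Car4* 0.687 (from 0.733). Medians of log2 ratios were capillary -0.87 (from -0.78). With EC nuclei with at least 1000 UMIs, the ratios were *Rgcc* 0.627 (from 0.553) and *Vwf* 0.679 (from 0.605). On the lists, 1.5-fold higher genes were venous 2 (from 1), beside 21.3% of all genes. Median log2 values were capillary -0.72 (from -0.78). With each nucleus thinned to 500 UMIs, the ratios were *Rgcc* 0.413 (from 0.553) and *Vwf* 0.507 (from 0.605). The median log2 ratios were capillary -0.84 (from -0.78) and venous -0.25 (from 0.04). With genes with at least 200 UMIs, list genes 1.5-fold higher were venous 0 (from 1), beside 16.1% of all genes. The 1.5-fold lower genes numbered arterial 3 (from 6), beside 6.89% of all. With 2-fold as the limit, list genes 2-fold lower were arterial 3 (from 6), capillary 3 (from 7) and venous 0 (from 3). Of all genes, 5.72% were 2-fold lower and 10.9% were 2-fold higher. With no filter beyond 1 UMI, list genes 1.5-fold higher were venous 4 (from 1), beside 28.9% of all genes. With nuclei thinned to 500 UMIs, share differences were *Mgp* -0.541 (from 1.62), *Rgcc* -3.82 (from -7.74), *Nr2f2* 2.12 (from 6.46) and *Vwf* -6.88 (from -10.2). With nuclei thinned to 1000 UMIs, share differences were *Mgp* -1.0005 (from 1.62), *Car4* -9.57 (from -4.97), *Rgcc* -3.68 (from -7.74), *Nr2f2* 2.80 (from 6.46) and *Vwf* -7.66 (from -10.2). The other 165 values lay inside their counting interval, or within 1.5-fold for counts, or for medians within the typical counting error of a list gene. Some of these differ all the same. Arterial genes 1.5-fold lower were 9 (from 6) in 3 settings. These were at least 2 endothelial markers, vSMCs added and the mean over nuclei, where 25.3%, 19.6% and 13.8% of all genes were lower. *Gkn3* per endothelial marker UMI was 0.969, and the venous median was -0.06 with TMM, -0.05 with median-ratio scaling and -0.10 with the mean over nuclei. The count of 3 markers was *Bmx*, *Gkn3* and *Mgp* with at least 2 endothelial markers and over all nuclei, and *Bmx*, *Rgcc* and *Vwf* with fewer mural UMIs, instead of *Mgp*, *Rgcc* and *Vwf*. Adding vSMCs and counting all nuclei were chosen after the data were seen.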

Other observations

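In the whole retina libraries the other markers gave few UMIs or none. *Gkn3* and *Cytl1* gave 0 UMIs in all 12 libraries. *Bmx* gave 35 UMIs in the control (1.13 CPM, 0.787 to 1.57) and from 0.397 to 1.24 CPM in the 10 CKO libraries other than replicate 4. *Mgp* gave 5 UMIs (0.161 CPM) in the control and at most 0.364 CPM in the CKO. *Car4* gave 1 UMI (0.0323 CPM) in the control and from 0.125 to 0.582 CPM in those 10. *Rgcc* gave 56 UMIs (1.81 CPM, 1.37 to 2.35) in the control and from 1.78 to 3.03 CPM in those 10, and over all libraries 357 of its UMIs (24.9 CPM) were under the Müller glia label. The 9 endothelial markers summed to 101 CPM in the control and to between 81.7 and 163.5 CPM in the 11 CKO libraries. They were below the control in the 3 CKO libraries of its batch (81.7 to 84.5 CPM) and above it in the other 8 (114.7 to 163.5 CPM).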
